A study of Mus musculus with 12 samples.

Results

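The 9 genes described here encode the core machinery that fuses, divides and clears mitochondria: Mfn1, Mfn2 and Opa1 for fusion, Oma1 for the cleavage of OPA1, Dnm1l, Fis1 and Mff for fission, and Pink1 and Bnip3 for mitophagy. They were chosen by symbol for these roles, with earlier results of these data known, and 9 of the 9 symbols were found among the 23337 genes counted. RNA was measured in cardiomyocytes (CMs, the contractile heart cells) from mice in 4 groups of 3 samples. All mice received AAV9-cTNT-Cre, an adeno-associated virus in which the cardiac troponin T promoter drives Cre recombinase, and all carried a fluorescent reporter that Cre switches on and that was used to sort the CMs. KO mice were Srf-flox/flox and CTRL mice were Srf-flox/+, so that CTRL CMs lost 1 copy of Srf, the gene of serum response factor, and kept the other. Neonatal mice were injected at P1 (postnatal day 1) and their CMs were isolated at P14, and adult mice were injected at P60 with isolation at P90. The study used a low dose of virus, so that the sorted CMs came from mosaic hearts in which a share of the CMs had been depleted.

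Mitochondria in CMs supply most of the ATP used for contraction, and they are packed between the myofibrils after birth. The mitofusins MFN1 and MFN2 are GTPases that join the outer membranes of neighbouring mitochondria, and OPA1 is the GTPase that joins the inner membranes and keeps cristae in shape. OMA1 is an inner membrane protease that cuts OPA1 under stress. DRP1, the product of Dnm1l, is a cytosolic GTPase that is recruited by adaptors such as MFF and constricts the organelle, while the part played by FIS1, another outer membrane protein, is less settled in mammals. PINK1 is a kinase that accumulates on damaged mitochondria and marks them for clearance, and BNIP3 is an outer membrane receptor that links mitochondria directly to autophagosomes.

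Total counts per sample ranged from 9740389 to 23103460, so that a floor of 3 counts (counting error only) equalled 0.130 to 0.308 CPM (counts scaled to library depth). Srf was lower in each KO sample than in any CTRL sample of its stage, at 9.68 to 32.1 CPM against 49.6 to 64.3 at P14 and at 27.9 to 33.2 CPM against 57.5 to 80.4 at P90. Its log2 fold change was -1.30 (adjusted P value = 0.0628 by edgeR) at P14 and -1.23 (adjusted P value = 0.00347 by edgeR) at P90. The cells matched their label: 8 CM marker genes summed to 67500 to 102000 CPM in each sample, and no list of fibroblast, endothelial, mural, leukocyte or erythroid markers summed to more than 652 CPM. 4 of the 5 erythroid markers, the globin genes, were at 0 in every sample. The CM marker sum was lower in KO than in CTRL without overlap at both stages, at 67500 to 73400 against 91600 to 102000 CPM at P14 and 81700 to 84300 against 88100 to 99300 CPM at P90. Myh6, the gene of alpha myosin heavy chain, held the largest share of this sum and had 32100 to 38300 CPM in KO against 46900 to 62800 in CTRL at P14 and 37400 to 42400 against 50900 to 61300 CPM at P90. The markers did not all move one way: the KO mean was lower for 7 of the 8 at P14 and for 3 of the 8 at P90, and edgeR called 1 lower at P14 and 0 at P90. Without Myh6 the sum of the other 7 was 34300 to 35300 CPM in KO against 38800 to 44800 in CTRL at P14, and at P90 it overlapped (39400 to 44300 against 37200 to 40000 CPM). The mural sum at P90 (404 to 519 against 533 to 652 CPM) was the only other sum that did not overlap between KO and CTRL of a stage, and most of it came from Abcc9 (means of 382 CPM in KO and 522 CPM in CTRL), a channel subunit that CMs express too. At P14 the mural sums overlapped, but edgeR called 1 mural marker higher in KO, the only call in the lists other than CM. There Cspg4 had a mean of 122 CPM in KO and 48.3 CPM in CTRL. The other mural markers had lower means in KO, with Abcc9 at 283 against 386 CPM. The part of these differences in the results on the 9 genes was not tested. In bulk samples such as these, fewer cells of a type and less RNA per cell cannot be told apart. Genes of the Y chromosome had 4756 counts in P14 CTRL replicate 1, 4005 in P14 KO replicate 3 and 3299 in P90 CTRL replicate 3. They had at most 2 in the other 9 samples. P90 KO was thus the only group without a sample high in Y-linked counts, and KO and CTRL were not balanced at P90.

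The levels of the 9 genes spanned a wide range. To compare genes with each other, levels are given as RPKM (CPM divided by the exon length in kilobases), as mean ± SD of n = 3 samples. In neonatal CTRL CMs, Mfn2 had the highest level of the 9 at 382 ± 26.8 RPKM. It was followed by Pink1 at 210 ± 1.24, Mff at 149 ± 13.8, Mfn1 at 123 ± 7.33 and Fis1 at 81.6 ± 11.5 RPKM, and the sample values of these 5 genes did not overlap from 1 rank to the next. Dnm1l (47.5 ± 10.9 RPKM), Bnip3 (47.5 ± 12.5 RPKM) and Opa1 (43.2 ± 2.67 RPKM) overlapped and cannot be ranked. Oma1 was the lowest of the 9 at 23.5 ± 3.22 RPKM.

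The order was partly different in the other groups. In neonatal KO CMs, Mfn2 was still first at 279 ± 24.4 RPKM, while Mfn1 at 77.4 ± 10.4 RPKM overlapped with Fis1 at 82.3 ± 5.6 RPKM. In adult CTRL CMs, Mfn2 (439 ± 38.7 RPKM) and Pink1 (424 ± 41.3 RPKM) overlapped at the top, and Bnip3 at 135 ± 15.3 RPKM had reached the level of Mff at 133 ± 10.5 RPKM. In adult KO CMs, Pink1 was first at 488 ± 24.3 RPKM, and its lowest sample (468 RPKM) lay above the highest sample of Mfn2 (400.2 RPKM). Oma1 was last in all 4 groups.

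**Figure D1:**
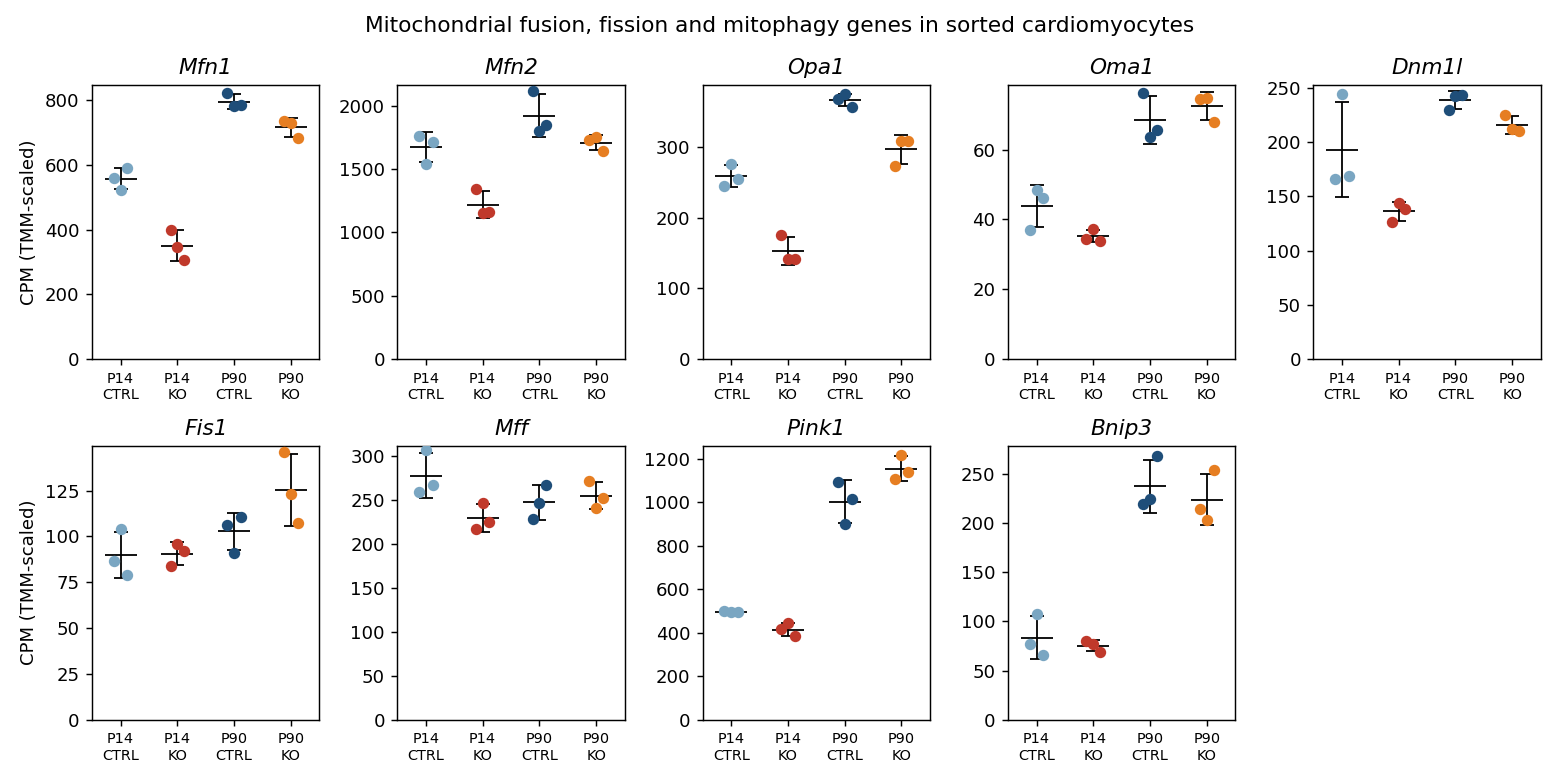
Levels of the 9 genes in each of the 12 samples, as CPM on linear axes that start at 0, by group (P14 CTRL, P14 KO, P90 CTRL, P90 KO). Points are samples, horizontal bars are means and whiskers are SD of n = 3. The KO points of Mfn1, Mfn2, Opa1, Dnm1l, Mff and Pink1 lie below the CTRL points at P14, and Bnip3 and Pink1 stand higher at P90 than at P14.

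To ask how loss of Srf in the neonatal period affects these genes, P14 KO was compared with P14 CTRL. The fusion genes Opa1 and Mfn1 were down-regulated, to 59.0% and 62.9% of the CTRL mean. The other 7 genes did not pass the test, although 8 of the 9 log2 fold changes were negative, with a median of -0.32 beside 0.00 over all 12546 genes tested, of which 49.8% were negative. The 2 genes called lower compare with 4.60% of all genes tested (3.99% were called higher, none of them among the 9). The KO and CTRL samples did not overlap for 6 of the 9 genes, all of them lower in KO, beside 16.9% of all genes lower without overlap and 15.9% higher.

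Opa1 had 246, 277 and 255 CPM in the 3 CTRL samples and 176, 141 and 142 CPM in the 3 KO samples. All 3 KO values lay well below the lowest CTRL value. The log2 fold change was -0.76 (SE 0.127, 95% interval -1.05 to -0.47, edgeR quasi-likelihood test, adjusted P value = 0.0153), and only 4.29% of all genes had a more negative one. Mfn1 had 559.9, 523 and 589 CPM in CTRL and 399, 348 and 305 CPM in KO, so that these groups were separated too. Its log2 fold change was -0.67 (SE 0.126, 95% interval -0.96 to -0.38, edgeR adjusted P value = 0.0204). Leaving out P14 KO replicate 2 or 3 ended both calls, with adjusted P values by edgeR of 0.0942 and 0.0917 for Mfn1 and 0.0769 and 0.0720 for Opa1 and log2 fold changes that stayed negative. The number of calls over all genes also dropped in these fits, from 1078 to 111 and 181.

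Mfn2, the second mitofusin, had 1764, 1540 and 1712 CPM in CTRL and 1343, 1155 and 1161 CPM in KO. The groups did not overlap, but the log2 fold change of -0.46 (95% interval -0.73 to -0.18) narrowly missed the threshold (edgeR adjusted P value = 0.0522), and DESeq2 called it (adjusted P value = 0.0022). Among the fission genes, Dnm1l had 166, 244 and 169 CPM in CTRL and 126, 144 and 138 CPM in KO. Its log2 fold change was -0.51 (95% interval -0.88 to -0.13, edgeR adjusted P value = 0.0963), and P14 CTRL replicate 2 stood apart from the other CTRL samples: without it the log2 fold change was -0.30 (edgeR adjusted P value = 0.105). DESeq2 called Dnm1l as well (adjusted P value = 0.0384), which made 4 of the 9 genes lower by DESeq2 beside 8.51% of all genes it tested.

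Mff had 258 to 307 CPM in CTRL and 216 to 246 CPM in KO, with a log2 fold change of -0.28 (95% interval -0.54 to -0.02) that did not pass. Fis1 was the only one of the 9 without a negative value, at 79.2 to 104 CPM in CTRL and 83.9 to 95.9 CPM in KO (log2 fold change 0.01, 95% interval -0.28 to 0.30). For Oma1, which cleaves OPA1, CTRL (37.0 to 48.3 CPM) and KO (33.9 to 37.3 CPM) overlapped at a log2 fold change of -0.32.

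The mitophagy genes did not pass the test at P14. Pink1 had 500.2, 496 and 495 CPM in CTRL and 418, 444 and 384 CPM in KO, a separation with a log2 fold change of -0.26 (95% interval -0.49 to -0.03, edgeR adjusted P value = 0.150). Bnip3 had 65.4 to 108 CPM in CTRL and 68.8 to 79.6 CPM in KO (log2 fold change -0.16, 95% interval -0.57 to 0.26), and its sign turned without P14 CTRL replicate 2.

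**Figure D2:**
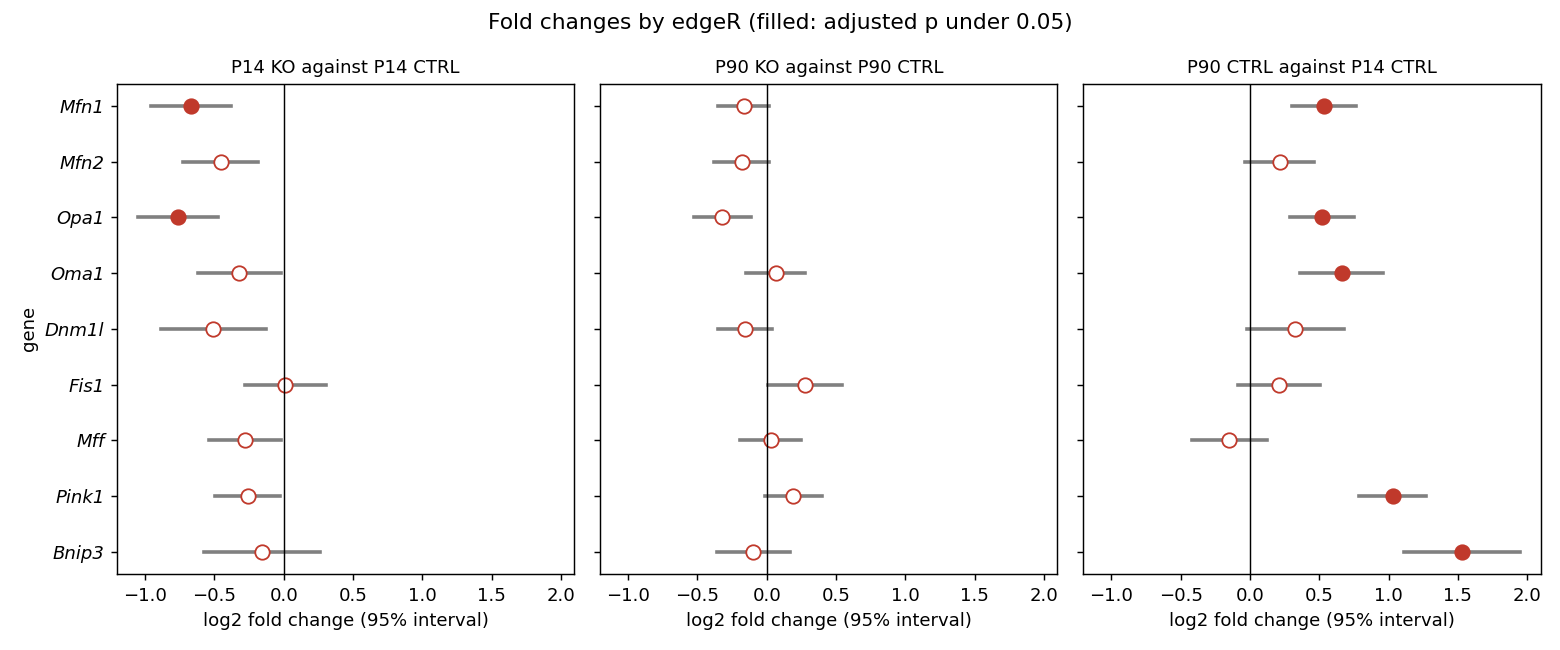
Log2 fold changes of the 9 genes (rows) with their 95% intervals (lines) for KO against CTRL at P14, for KO against CTRL at P90 and for P90 CTRL against P14 CTRL. Filled points had an edgeR adjusted P value under 0.05: 2 at P14, 0 at P90 and 5 between the CTRL groups.

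The sequences upstream of the start sites of the 2 genes down-regulated at P14 are shown because SRF is known to bind a sequence called the CArG box. RefSeq start sites (GRCm38.p6) were found for 9 of the 9 genes, with 14 start sites in all, and the 250 bases before each were searched on both strands for 6 motifs: the CArG box, AAGGTCA (bound by ERR nuclear receptors), ACGTG and GCGTG (cores of hypoxia response elements), TGACGTCA (bound by CREB) and CCGGAAG (bound by ETS factors). The CArG box, AAGGTCA and TGACGTCA were found in none of the 14 windows, beside 1.47%, 4.08% and 1.55% of all 32851 windows of this length. CCGGAAG was found before Mfn1, starting 44 bases before its start site, and before 1 of the start sites of Fis1, 18 bases before it, beside 6.91% of all windows. A match, or its absence, describes these letters only and does not measure binding. By sequencing DNA pulled down with SRF from hearts, the authors reported SRF at proximal and distal sites of Mfn1 and Mfn2 during maturation. The windows are Mfn1 at chr3:32529232-32529481 (+ strand) and Opa1 at chr16:29579084-29579333 (+ strand), written 5′ to 3′ with any motif in capitals.
Mfn1: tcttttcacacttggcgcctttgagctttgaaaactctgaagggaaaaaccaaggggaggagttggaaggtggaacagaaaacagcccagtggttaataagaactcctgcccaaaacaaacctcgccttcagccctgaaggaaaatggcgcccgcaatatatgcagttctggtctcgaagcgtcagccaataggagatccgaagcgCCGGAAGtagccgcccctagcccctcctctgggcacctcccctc
Opa1: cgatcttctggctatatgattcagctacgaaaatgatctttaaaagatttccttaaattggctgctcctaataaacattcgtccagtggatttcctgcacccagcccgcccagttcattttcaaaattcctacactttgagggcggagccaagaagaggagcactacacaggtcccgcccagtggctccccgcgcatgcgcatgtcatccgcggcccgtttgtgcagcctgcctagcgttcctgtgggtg

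To ask whether these genes respond to loss of Srf after CMs have matured, P90 KO was compared with P90 CTRL. By edgeR, 0 of the 9 genes passed, beside 0.152% of 11808 genes called lower and 0.237% called higher. At an unadjusted P value under 0.05 there were 2, Opa1 (lower) and Fis1 (higher), beside 1910 of all 11808 genes. DESeq2 called 1, Opa1, beside 2.05% of the genes it tested called lower. 5 of the 9 log2 fold changes were negative, with a median of -0.10 beside 0.01 over all genes. KO lay below CTRL without overlap for 4 genes (Mfn1, Mfn2, Opa1 and Dnm1l) and above it for 1 (Pink1), beside 10.0% of all genes lower and 11.0% higher without overlap.

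Opa1 had 368, 375 and 358 CPM in adult CTRL and 274, 308 and 309 CPM in adult KO. All 3 KO samples lay below the lowest CTRL sample. The log2 fold change was -0.32 (SE 0.092, 95% interval -0.52 to -0.12, edgeR adjusted P value = 0.142, DESeq2 adjusted P value = 0.0459). Mfn1 had 821, 782 and 785 CPM in CTRL and 736, 729 and 683 CPM in KO, a separation with a log2 fold change of -0.17 (95% interval -0.35 to 0.02). Mfn2 differed by -0.18 (95% interval -0.38 to 0.02) and Dnm1l by -0.16 (95% interval -0.35 to 0.04) on the same scale, and both were separated without passing the test.

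Pink1 had 1094, 899 and 1016 CPM in adult CTRL and 1108, 1219 and 1139 CPM in adult KO. The lowest KO sample exceeded the highest CTRL sample by little, and the log2 fold change of 0.19 (95% interval -0.02 to 0.40) did not pass (edgeR adjusted P value = 0.343). Fis1 had 106, 91.1 and 111 CPM in CTRL and 146, 123 and 107 CPM in KO, with overlap, and a log2 fold change of 0.27 (95% interval 0.01 to 0.54, edgeR adjusted P value = 0.292). Oma1 (0.07, 95% interval -0.15 to 0.28), Mff (0.03, 95% interval -0.19 to 0.25), and Bnip3 (-0.10, 95% interval -0.36 to 0.16) overlapped between adult KO and CTRL, these values being log2 fold changes. The P14 value of Bnip3 (-0.16) lies inside its P90 interval, while those of Oma1 (-0.32) and Mff (-0.28) lie below theirs. This reading does not allow for the spread at P14.

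The difference between the stages was tested as the KO effect at P14 minus that at P90, in a fit of all 12 samples. By edgeR, 0 of the 9 genes passed, beside 0.958% of 12841 genes called lower and 0.818% called higher. At an unadjusted P value under 0.05 there were 4, beside 2440 of the 12841 genes. The down-regulation of Opa1 and Mfn1 was thus not shown to differ between neonatal and adult CMs. The difference was negative for 9 of the 9 genes, with a median of -0.34 on the log2 scale beside -0.01 over all genes. It was -0.49 for Mfn1 (95% interval -0.81 to -0.18, edgeR adjusted P value = 0.0939), -0.44 for Pink1 (95% interval -0.73 to -0.16, edgeR adjusted P value = 0.0995) and -0.43 for Opa1 (95% interval -0.76 to -0.11, edgeR adjusted P value = 0.146). DESeq2 called these 3 genes, with adjusted P values of 0.0123, 0.0058 and 0.0475, beside 6.32% of the genes it tested called lower. The smallest difference was that of Bnip3 (-0.05, 95% interval -0.55 to 0.45).

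The fold changes of the 9 genes in KO were ordered by exon length, which ran from 1102 bp for Fis1 to 6002 bp for Opa1. Spearman's rho between exon length and log2 fold change was -0.93 over the 9 genes at P14, while over all genes tested it was 0.19. At P90 it was -0.82 over the 9 genes and -0.43 over all genes, where genes under 2000 bp had a median log2 fold change of 0.13 and genes over 4000 bp one of -0.13. These values are descriptions, since the points share libraries and depth. With a correction for length fitted in each sample over all genes, the P14 values moved away from 0 for Opa1 (-0.85, edgeR adjusted P value = 0.0106), Mfn1 (-0.73, edgeR adjusted P value = 0.0118) and Mfn2 (-0.51, edgeR adjusted P value = 0.0195), which then passed. The P90 value of Opa1 moved towards 0, to -0.18 (edgeR adjusted P value = 0.265), and that of Fis1 to 0.11. In the difference between stages, Mfn1 (-0.65, edgeR adjusted P value = 0.0393) and Opa1 (-0.67, edgeR adjusted P value = 0.0359) passed with this correction. After it, Spearman's rho over the 9 genes was -0.97 at P14 and -0.47 at P90, again as descriptions. The values over all genes were then -0.01 and -0.005.

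**Figure D3:**
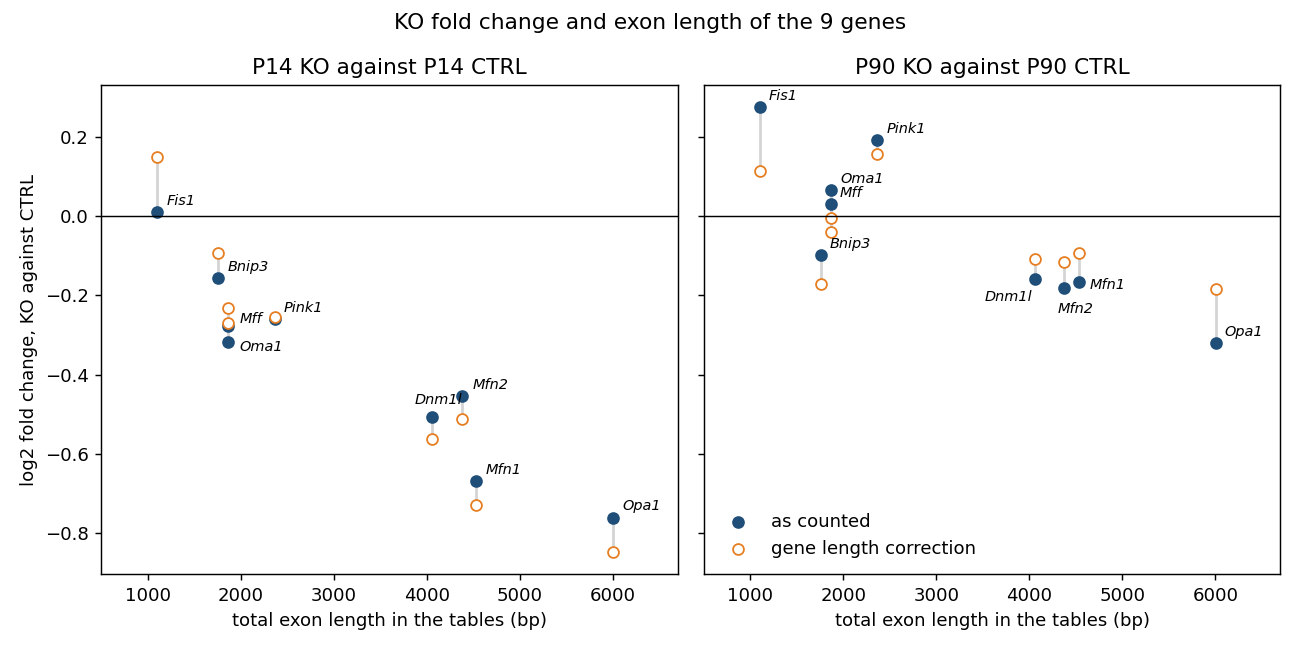
Log2 fold change in KO against total exon length in bp for the 9 genes, at P14 and at P90. Filled points are the values as counted and open points those after the gene length correction. At P90 the spread between Fis1 and Opa1 shrinks from 0.27 and -0.32 to 0.11 and -0.18, while at P14 Opa1 moves from -0.76 to -0.85.

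In CTRL CMs, 5 of the 9 genes were higher at P90 than at P14: Bnip3 (2.88-fold), Pink1 (2.04-fold), Oma1 (1.58-fold), Mfn1 (1.45-fold) and Opa1 (1.44-fold). None was lower, beside 14.5% of 12294 genes called higher and 14.9% called lower. These 5 genes and Mfn2 did not overlap between the ages, all of them higher at P90, beside 21.2% of all genes higher and 23.7% lower without overlap. Age and time since the virus (P1 to P14, P60 to P90) cannot be told apart here, and CTRL CMs at both ages lack 1 copy of Srf. The route of injection, subcutaneous in pups and intraperitoneal in adults, and any difference in handling between the stages cannot be told apart from age either.

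Bnip3 had 76.9, 108 and 65.4 CPM at P14 and 219, 225 and 268 CPM at P90. Even the highest neonatal sample was below the lowest adult one, and the log2 fold change of 1.53 (SE 0.185, 95% interval 1.11 to 1.95, edgeR adjusted P value = 0.000651) exceeded that of 97.4% of all genes. Pink1 had 495 to 500.2 CPM at P14 and 899 to 1094 CPM at P90, with a log2 fold change of 1.03 (SE 0.106, 95% interval 0.79 to 1.27, edgeR adjusted P value = 0.000334). Among the fusion genes, Mfn1 had 523 to 589 CPM at P14 and 782 to 821 CPM at P90 (log2 fold change 0.53, SE 0.102, edgeR adjusted P value = 0.0055). Opa1 had 246 to 277 CPM at P14 and 358 to 375 CPM at P90 (log2 fold change 0.52, SE 0.103, edgeR adjusted P value = 0.00612), and Oma1 37.0 to 48.3 and 63.6 to 76.3 CPM (log2 fold change 0.66, SE 0.133, edgeR adjusted P value = 0.00657).

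The fission genes did not pass the test between the ages in the fit of all 6 CTRL samples. Their log2 fold changes were 0.33 for Dnm1l (95% interval -0.02 to 0.68), 0.21 for Fis1 (95% interval -0.09 to 0.51) and -0.15 for Mff (95% interval -0.41 to 0.12). Mfn2 had 1540 to 1764 CPM at P14 and 1800 to 2114 CPM at P90, a separation with a log2 fold change of 0.22 (95% interval -0.03 to 0.46, edgeR adjusted P value = 0.169). The 5 genes called were called in all 13 fits made of this comparison, namely the one reported and 12 alternatives. Without P14 CTRL replicate 2, Dnm1l passed as well, with a log2 fold change of 0.52 (edgeR adjusted P value = 0.00423).

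The windows before the start sites of Bnip3 and Pink1, the genes with the largest rise among the 9, are shown with their motifs in capitals. Before Bnip3, GCGTG started 117, 99 and 35 bases before the start site and ACGTG 108 and 107 bases before it on opposite strands, overlapping in a palindrome. Before Pink1, GCGTG started 47 bases before the start site. Of the 14 windows, 2 held ACGTG (Bnip3 and 1 of Mfn2) and 6 held GCGTG (Bnip3, Pink1, all 3 of Mfn2, which overlap in part, and 1 of Dnm1l), beside 16.6% and 28.2% of all 250-base windows. Mfn2 and Dnm1l did not pass between the ages, while Oma1, Mfn1 and Opa1, which did, had neither motif. The positions are chr7:138909507-138909756 (- strand) for Bnip3 and chr4:138326297-138326546 (- strand) for Pink1, in RefSeq's GRCm38.p6.
Bnip3: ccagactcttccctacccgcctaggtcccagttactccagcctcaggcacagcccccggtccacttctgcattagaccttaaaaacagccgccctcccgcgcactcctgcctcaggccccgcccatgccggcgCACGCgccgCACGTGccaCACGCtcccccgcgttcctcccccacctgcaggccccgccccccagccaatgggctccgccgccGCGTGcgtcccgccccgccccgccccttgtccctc
Pink1: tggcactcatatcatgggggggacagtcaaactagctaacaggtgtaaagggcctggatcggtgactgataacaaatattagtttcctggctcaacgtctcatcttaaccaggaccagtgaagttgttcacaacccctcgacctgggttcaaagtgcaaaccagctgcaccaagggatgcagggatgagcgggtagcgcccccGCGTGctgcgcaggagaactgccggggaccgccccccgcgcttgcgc

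Ratios between partners, taken in each sample, describe the balance of the machinery and were not tested. The mean log2 CPM of Mfn1, Mfn2 and Opa1 minus that of Dnm1l, Fis1 and Mff was 1.89 ± 0.243 (SD, n = 3) in P14 CTRL and 1.51 ± 0.245 in P14 KO, and 2.18 ± 0.114 in P90 CTRL and 1.91 ± 0.127 in P90 KO. At P14 the samples of the groups overlapped (1.61 to 2.06 against 1.35 to 1.79), and at P90 they did not (2.06 to 2.28 against 1.76 to 1.99). The ratio of Mfn2 to Mfn1 in RPKM was 3.01 to 3.26 in P14 CTRL and 3.44 to 3.94 in P14 KO. In adult CMs it was lower, at 2.38 to 2.66 in CTRL and 2.43 to 2.49 in KO. The ratio of Opa1 to Oma1 was 1.71 to 2.06 in P14 CTRL against 1.18 to 1.59 in P14 KO, and 1.5 to 1.83 in P90 CTRL against 1.14 to 1.41 in P90 KO, so that KO lay below CTRL without overlap at both stages. The genes in these ratios differ in exon length, and the ratios were not recomputed with a correction for length. With the gene length correction, the P90 log2 fold changes of Opa1 and Oma1 moved from -0.32 and 0.07 to -0.18 and -0.004. At P14 they moved from -0.76 and -0.32 to -0.85 and -0.27. The part of the length trend in the ratios was not tested.

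Beyond the 9 genes, 88 other genes of mitochondrial dynamics, cristae structure, transport and autophagy were examined in 7 lists. At P14, 13 of the 87 tested were down-regulated in KO, beside 4.60% of all genes tested, and 3 were up-regulated, beside 3.99%. The median log2 fold change was -0.14. The calls were uneven between the lists: 5 of 8 genes of the cristae junction list were lower, namely Immt, Chchd3, Apoo and Apool, which encode subunits of the MICOS complex that holds cristae junctions in place, and Samm50, an outer membrane assembly factor that binds MICOS. Their log2 fold changes were -0.66 for Immt, -0.63 for Chchd3, -0.76 for Apoo, -0.68 for Apool and -0.65 for Samm50, beside a list median of -0.64. These genes were not called at P90, where the list median was 0.05. Without P14 KO replicate 1, 2 or 3, the cristae junction genes called at P14 were 0 in each case, the listed genes called lower were 2, 0 and 0, and those called higher 0 in each case. Over all genes, the lower calls also dropped in these 3 fits, from 577 to 79, 21 and 56. The higher calls over all genes dropped from 501 to 123, 90 and 125.

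Among the genes of fusion and OPA1 processing, 3 of 12 were lower at P14: the prohibitins Phb (146 ± 13.9 CPM in CTRL, 89.3 ± 4.65 CPM in KO, log2 fold change -0.72) and Phb2 (log2 fold change -0.65), which form a ring in the inner membrane and stabilise OPA1, and Afg3l2 (log2 fold change -0.45), a subunit of the m-AAA protease. The largest fall among the listed genes that passed was that of Mtfp1, an inner membrane protein that promotes fission, from 136 ± 39.1 CPM in CTRL to 60.6 ± 11.7 CPM in KO, that is by -1.17 on the log2 scale (SE 0.218, adjusted P value = 0.0199 by edgeR). With Mul1, an outer membrane ubiquitin ligase (log2 fold change -0.46), it made 2 of 13 fission genes tested. Optn, an autophagy adaptor recruited to ubiquitin on mitochondria, was 73.3 ± 7.78 CPM in CTRL and 44.0 ± 3.22 CPM in KO, with a log2 fold change of -0.74 (edgeR adjusted P value = 0.0138), the only one of 6 cargo adaptors that passed. Rhot2, the outer membrane GTPase that ties mitochondria to motors, was lower too (log2 fold change -0.66), 1 of 5 transport genes.

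The other mitophagy receptors and regulators had 0 of 13 called at P14 by edgeR, and DESeq2 called 1 in each direction. At an unadjusted P value under 0.05 there were 3, beside 3206 of all 12546 genes tested. Bnip3l, the paralog of Bnip3, had a log2 fold change of 0.41 (edgeR adjusted P value = 0.0525). Of 30 autophagosome genes, 1 was lower, Atg4d (log2 fold change -0.37), and 3 rose. They were Atg7, the enzyme that activates ubiquitin-like ATG proteins (20.9 ± 2.94 CPM in CTRL, 31.3 ± 3.08 CPM in KO, log2 fold change 0.58), and Ambra1 (log2 fold change 0.45) and Atg13 (log2 fold change 0.44), which act at the start of autophagosome formation. The higher calls were also 0 without P14 CTRL replicate 1, and DESeq2 called 5 listed genes higher, of which 3 were autophagosome genes. Among all genes, 336 were called higher without P14 CTRL replicate 1 and 806 by DESeq2, beside 501 in the fit reported.

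At P90, 0 of 84 listed genes passed by edgeR, beside 18 lower and 28 higher among all 11808 genes tested. An unadjusted P value under 0.05 was found for 14 listed genes, beside 1910 of all 11808. DESeq2 called 0 listed genes, beside 186 lower and 157 higher among all genes. In the difference between stages, 4 genes passed (beside 0.958% of all genes called lower and 0.818% higher), all with a more negative KO effect at P14: Phb (-0.81), Phb2 (-0.78), Samm50 (-0.65) and Mtfp1 (-1.19), on the log2 scale. This count ran from 0 to 6 with 1 sample left out, and was 0 without P14 KO replicate 1, 2 or 3, P90 CTRL replicate 2 or 3, or P90 KO replicate 1 or 2. The lower calls over all genes ran from 1 to 231 with 1 sample left out, beside 123 in the fit reported. Between CTRL at P90 and P14, 27 of 86 were higher and 5 lower, beside 14.5% and 14.9% of all genes. With 1 sample left out these counts ran from 12 to 37 higher and from 1 to 6 lower: the higher ones were 13 without P14 CTRL replicate 1, 13, 15 and 12 without P90 CTRL replicates 1, 2 and 3, and the lower ones were 1, 1, 2 and 1 in these fits and 1 without P14 CTRL replicate 3. Calls over all genes ran from 1108 to 2338 higher and from 959 to 2430 lower with 1 sample left out, beside 1779 and 1828 in the fit reported. Among the genes that passed at a mean of 5 CPM or more, the largest rises were those of Optn (73.3 ± 7.78 to 166 ± 9.74 CPM, log2 fold change 1.20), Gabarapl1 (33.6 ± 3.94 to 67.8 ± 6.01 CPM, log2 fold change 1.03), Atg12 (log2 fold change 0.88) and Atg2a (log2 fold change 0.79), the latter 3 being autophagosome genes, of which 10 of 30 rose (5 to 11 with 1 sample left out). The fission gene Spire1, with a mean of 4.81 CPM, had a log2 fold change of 1.06 (edgeR adjusted P value = 0.0318). Of the genes that fell at a mean of 5 CPM or more, Phb2 went from 338 ± 27.4 to 219 ± 27.8 CPM (log2 fold change -0.61). Msto1 (-0.51), Wdfy3 (-0.47) and Parl (-0.34), the inner membrane rhomboid protease that cleaves PINK1, fell less on that scale. The fission gene Inf2, with a mean of only 0.675 CPM, had the largest fall called (log2 fold change -1.755, edgeR adjusted P value = 0.022). Bnip3l did not follow Bnip3 with age (log2 fold change -0.19, edgeR adjusted P value = 0.284).

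**Figure D4:**
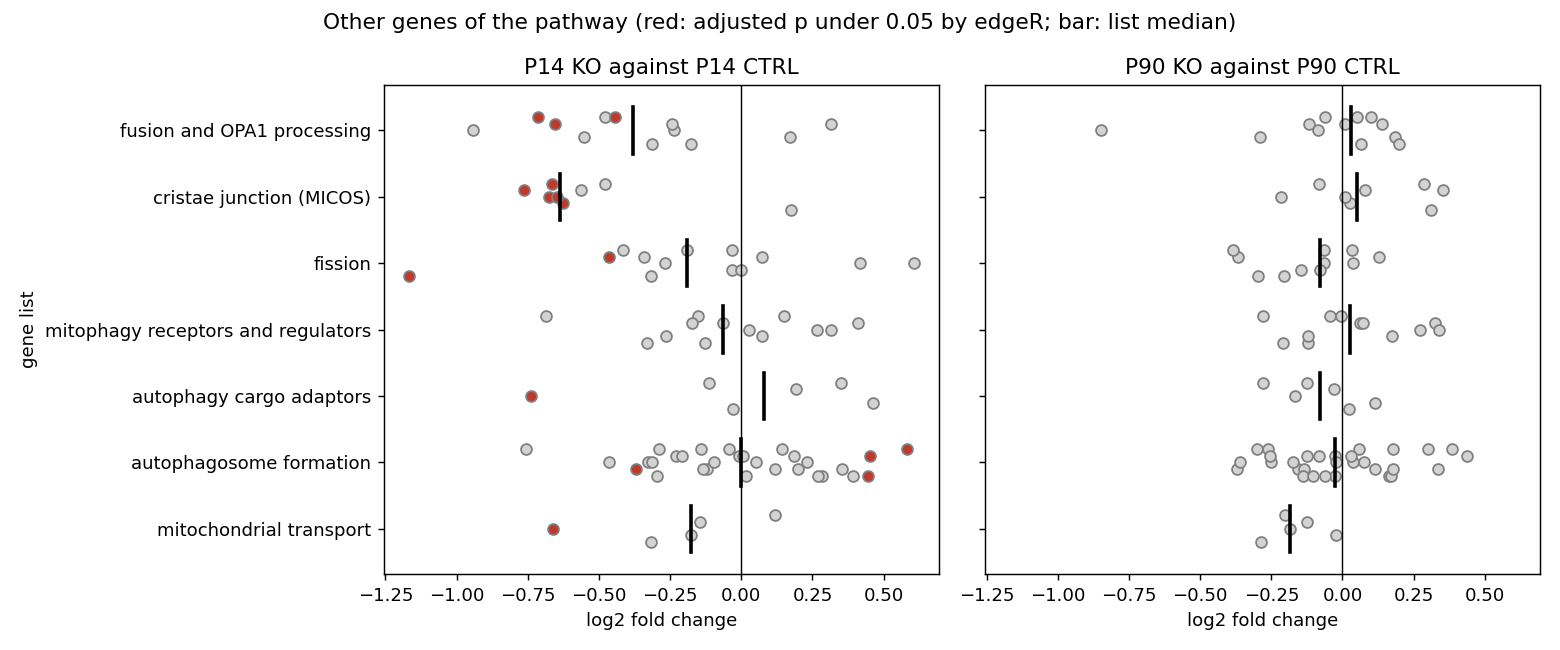
Log2 fold changes in KO at P14 and at P90 of the other listed genes, 1 point per gene, by list. Red points had an edgeR adjusted P value under 0.05 and black bars are list medians. At P14, 5 of the 8 genes of the cristae junction list are red and its median lies at -0.64, and at P90 no point is red.

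The genes whose pattern was most like that of a member were sought among 8090 genes, by Pearson's r of log2 CPM over the 12 samples. As the samples fall into 4 groups, r mostly follows the differences between groups and is given as a description. For Mfn1 they were Pdk2 (r = 0.991), Asb14 and Faf1, and for Mfn2 1300001I01Rik (r = 0.989), Ipo13 and Nkiras2. Opa1 was most like Zfp449 (r = 0.985), Fastkd2 and Wwp1, and Bnip3 most like Esrrb (r = 0.989), Slc35e1 and Vmp1.

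In the deposited tables (mm10), the genes lie on chromosomes 3 (Mfn1, 32529482 to 32579225), 4 (Oma1, 103313846 to 103366428; Pink1, 138313410 to 138326296; Mfn2, 147873595 to 147904819), 16 (Dnm1l, 16312233 to 16359030; Opa1, 29579334 to 29654602), 5 (Fis1, 136953275 to 136966234), 1 (Mff, 82724918 to 82752389), and 7 (Bnip3, 138890836 to 138909506). None of the 9 shares exon positions with another gene of the tables.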

How the data were processed

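RNA-seq was performed by the authors on sorted CMs: poly(A) RNA was amplified as full-length cDNA with SMART-Seq v4, libraries were made with Nextera XT, and single-end reads were sequenced on a NextSeq 500. The submitters' processing notes name CASAVA 1.8, STAR 2.5.3a, featureCounts (Subread 1.5.2) and the build mm10. The authors deposited raw counts per gene, not normalized, in 1 table per stage. The annotation version, the strand setting and the treatment of multi-mapping reads are not given in the sources used here.

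Samples were grouped by title. Tests were run with edgeR 4.0.16 (R 4.3.3): genes were kept by filterByExpr (minimum count 10), libraries were scaled by TMM, and each comparison was fitted on its own 6 samples (12 for the difference between stages) with the quasi-likelihood F-test and Benjamini-Hochberg adjustment over all genes tested, at an adjusted P value under 0.05. Standard errors and 95% intervals were derived from the F statistic. CPM and RPKM levels used TMM factors over the 12 samples, and correlations and role averages used log2 CPM with a prior count of 2. The authors used DESeq2, which served here as an alternative (version 1.42.0), with RLE factors, no count filter, the replicate number as a block, a per-sample loess correction for exon length (span 0.5), a fit of all 12 samples, and each sample left out in turn. P values measure the spread between the 3 samples per group, for which the study gives 3 hearts. The tests were checked on simulated counts.

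The 9 genes, the lists and the tests were chosen with earlier results of these data known. The 9 genes are described in each comparison, and another gene of this group is not reported here. Of the lists, up to 4 genes per direction with the largest log2 fold change among those that passed at a mean of 5 CPM or more are named by rule, and the 3 most alike genes at a mean of 10 CPM or more for Mfn1, Mfn2, Opa1 and Bnip3. The other list genes were named after their values were seen.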

Additional observations from a re-analysis of the deposited data

Results flagged for a closer look

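Pink1 was looked at again because its KO samples all lay below CTRL at P14 (384 to 444 against 495 to 500.2 CPM) and all above CTRL at P90 (1108 to 1219 against 899 to 1094 CPM). The gap at P90 was small. Of all genes, 16.9% were lower without overlap at P14 and 11.0% higher without overlap at P90. As Pink1 was picked from these same values, the test of their difference adds no independent support. The KO effect at P14 minus that at P90 was -0.444 on the log2 scale. The difference was tested and missed the threshold by edgeR (adjusted P value = 0.0995), while DESeq2 called it (adjusted P value = 0.0058). With the gene length correction the difference was -0.417 (edgeR adjusted P value = 0.100).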

How the results depend on the processing

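At P14 the number of the 9 genes called, 2 as reported, was 4 by DESeq2 and 4 in the fit of all 12 samples, and from 0 to 3 with 1 sample left out, the 0 arising without P14 KO replicate 2 and without replicate 3. Genes called lower among all genes were 577 as reported, 1026 by DESeq2 and 1163 in the fit of all 12 samples. They ran from 21 to 534 with 1 sample left out. Leaving out P14 KO replicate 1 kept both calls, but the listed genes called lower then went from 13 to 2 and the cristae junction genes from 5 to 0, and without replicate 2 or 3 the listed genes called were 0. Calls over all genes dropped in these fits too, from 577 lower as reported to 79, 21 and 56 without P14 KO replicate 1, 2 and 3. At P90 DESeq2 called 1 gene, which was lower, beside 186 lower among all genes. In the difference between stages DESeq2 called 3 genes and the gene length correction 2, beside 0 as reported. Among all genes, 607 and 122 were called lower in these 2 settings, beside 123 as reported. The listed genes called lower in the difference between stages, 4 as reported, were 13 by DESeq2, 10 with the replicate block and from 0 to 6 with 1 sample left out. All genes called lower were 405 with the block and from 1 to 231 with 1 sample left out. Signs turned only for values that did not pass: with 1 sample left out, log2 fold changes ranged from -0.075 to 0.133 for Fis1 and from -0.306 to 0.08 for Bnip3 at P14, from -0.046 to 0.088 for Mff at P90 and from -0.178 to 0.192 for the stage difference of Bnip3. With the gene length correction the sign turned for Oma1 (-0.004) and Mff (-0.040) at P90 and for the stage differences of Fis1 (0.029) and Bnip3 (0.071). The cause was not tested.

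Deviations of same-numbered KO and CTRL samples correlated at 0.044, 0.146 and 0.352 at P14 and at 0.178, 0.003 and 0.053 at P90. These values were all positive, but not every sample correlated best with its own number. The sample labels do not say whether the numbers pair samples, and the fits reported did not pair them. Adding the block changed the edgeR calls over all genes from 1078 to 1529 at P14 and from 46 to 655 at P90. They went from 228 to 687 in the difference between stages, but from 3607 to 3139 between the ages. These values do not settle whether the numbers pair samples. With the replicate block 3 of the 9 genes were called at P14 (Mfn2 joining, edgeR adjusted P value = 0.0426), 0 at P90 (Opa1, edgeR adjusted P value = 0.0556), 5 between the ages and 0 in the difference between stages.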

Other observations

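The mitophagy receptors Bnip3 and Bnip3l, which encode related outer membrane proteins, differed in their balance between the ages. The ratio of Bnip3l to Bnip3 in RPKM was 0.203 ± 0.054 (SD, n = 3) in P14 CTRL and 0.288 ± 0.035 in P14 KO, and 0.0599 ± 0.00976 in P90 CTRL and 0.0800 ± 0.0104 in P90 KO. KO samples lay above CTRL samples at both stages, at 0.250 to 0.319 against 0.142 to 0.244 and at 0.0683 to 0.0879 against 0.0486 to 0.0658. The gaps were narrow, and edgeR called neither gene in KO at either stage. The summed RPKM of Mfn1 and Mfn2 was 505 ± 32.8 in P14 CTRL, 356 ± 34.0 in P14 KO, 614 ± 43.6 in P90 CTRL and 548 ± 19.2 in P90 KO. These ratios and sums were not tested and were not recomputed with a correction for length.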
